A study of Homo sapiens with 23 samples.

Results

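The genes described here carry a cell from G1 into S phase: the D-type cyclins CCND1 and CCND2, their kinase CDK6, the E-type cyclins CCNE1 and CCNE2 with their kinase CDK2, the CDK inhibitors CDKN2A and CDKN1B, the retinoblastoma gene RB1 and the transcription factor gene E2F1. They were picked by name, and each was found in the deposited table by its NCBI Gene ID, so that 10 of 21658 measured genes are covered. RNA was sequenced from 4 established human ovarian cancer cell lines, OV-90, Kuramochi, OVSAHO and EFO-21, in a parental form and in a form made resistant to prexasertib, an inhibitor of the checkpoint kinase CHK1. Resistance had been raised by culture in slowly increasing drug, and the labels name 1 resistant form of each line without stating how many derivations it came from. There were 3 libraries per group, except for parental OV-90 with 2. The parental groups were OV-90 parental, Kuramochi parental, OVSAHO parental and EFO-21 parental, and the resistant groups are called OV-90-R, Kuramochi-R, OVSAHO-R and EFO-21-R below. The sources used here do not state whether drug was in the medium at harvest or whether a resistant line was a clone or a pool.

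In G1, cyclin D binds CDK4 or CDK6 and starts the phosphorylation of the RB1 protein, which until then holds E2F factors back. Freed E2F1 drives the genes of S phase, the E-type cyclins among them, and cyclin E with CDK2 completes the phosphorylation of RB1 and fires replication origins. The product of CDKN2A, p16INK4a, blocks CDK4 and CDK6, and the product of CDKN1B, p27, holds cyclin E-CDK2 in check. In high-grade serous ovarian cancer this axis is best known for amplification of CCNE1, and CHK1 is the kinase that restrains CDK2 when replication is disturbed.

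Values are log2 expression values on a scale that the authors quantile normalised, so that every library had the same median of 6.01 and the same upper decile of 9.24. Read counts were not used here, the depth of each library is unknown, and precision rests on the spread between libraries. The bottom of the scale means the lowest 10% of values of each library, with an upper edge of 1.70 to 1.87, and a difference that ends there is not a measured fold change. Values are not per length, so levels are compared between lines for a gene and not between genes. Each library was closest in profile to another library of its own group, in 23 of 23 cases. The libraries differed along transcript length: in the longest 10% of genes relative to the shortest 10%, parental OV-90 libraries 2 and 3 lay at -0.23 and 0.23 from their group mean, Kuramochi parental library 4 at 0.40 and Kuramochi-R library 18 at -0.24. From parental OV-90 to OV-90-R the median log2 change ran from -0.48 in the shortest 10% to 0.54 in the longest 10%, against -0.14 to 0.21 in OVSAHO, -0.11 to 0.09 in EFO-21 and -0.14 to -0.02 in Kuramochi. Values corrected for length are therefore given beside the changes of the 10 genes in OV-90, apart from E2F1. The pathway genes with the largest changes there and the named neighbours also carry them. Markers, list counts and steps between parental lines are given without that correction. With it, 8 of the 10 genes kept the sign of their difference between parental OV-90 and OVSAHO. That count was 9 against Kuramochi and 9 against EFO-21. The cause of the trend along length was not tested. Of 9 epithelial and ovarian cancer markers, EPCAM, KRT8 and KRT18 were high in parental OV-90 at means of 12.30, 11.40 and 12.08, while the Müllerian factor PAX8 at 2.10, WT1 at 1.87 and MUC16 at 1.15 were at or near the bottom. PAX8 stood at 9.37, 9.02 and 8.44 in parental Kuramochi, OVSAHO and EFO-21. Low values were not limited to OV-90. WT1 was at the bottom in parental EFO-21 at 1.03, and MUC16 was at 2.48 in parental Kuramochi. KRT7 was low in parental OV-90, Kuramochi and EFO-21, at 2.92, 3.76 and 2.76. From parental to resistant, 8 of the 9 markers fell and 0 rose in Kuramochi, 7 fell and 1 rose in OVSAHO, 5 fell and 2 rose in EFO-21 and 2 fell and 0 rose in OV-90. Among all genes, 23.3% fell and 23.6% rose in Kuramochi, and 16.2% fell and 17.1% rose in OVSAHO. In EFO-21 23.4% fell and 25% rose, and in OV-90 17.9% fell and 18.1% rose. The other marker counts in this paragraph are read against the same shares. The summed log2 values of the 9 markers went from 70.2 to 71.1 down to 54.9 to 55.7 in Kuramochi, from 83.4 to 84.1 down to 71.2 to 71.8 in OVSAHO, from 67.2 to 67.8 down to 66.0 to 66.6 in EFO-21 and from 56.2 to 57.3 to 54.5 to 56.5 in OV-90, and their part in the results below was not tested. Of 5 fibroblast markers, 0 passed in OV-90, 2 rose and 3 fell in Kuramochi, 2 rose and 2 fell in OVSAHO and 1 rose and 0 fell in EFO-21. In OVSAHO the matrix proteoglycan genes DCN and LUM went from means of 2.05 and 2.03 to 6.27 and 6.76. LUM was at the bottom in 2 of 3 parental libraries. The collagen genes COL1A1 and COL3A1 fell there, from means of 4.13 and 3.51 to 2.58 and 1.35. COL3A1 was at the bottom in 3 of 3 OVSAHO-R libraries. The lowest sum of the 5 in a library was 12.8 in parental OVSAHO and 18.4 in OVSAHO-R. The sums were higher in parental OV-90, at 33.1 to 34.9, where the mean of LUM was 12.76. The part of these markers was not tested either. Of 6 blood and endothelial markers, 1 rose in OVSAHO and 0 in the other lines, and 1 fell in OV-90, 1 in Kuramochi, 2 in OVSAHO and 2 in EFO-21.

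Some of the 10 G1/S genes passed the test in each of the 4 resistant lines, but not in a shared way, and in Kuramochi-R the share was below that of all genes. In OV-90-R, 6 of the 10 passed the test, 5 higher and 1 lower, against 36.0% of all genes, 18.1% higher and 17.9% lower. In Kuramochi-R, 3 passed and all 3 were lower, against 46.9% of all genes, 23.6% higher and 23.3% lower. CCND2, at the bottom in both forms, was among the 3, and leaving out 1 library gave a count of 0 to 3. In OVSAHO-R, 8 passed, 6 higher and 2 lower, against 33.3%, 17.1% higher and 16.2% lower. In EFO-21-R, 7 passed, 5 higher and 2 lower, against 48.4%, 25% higher and 23.4% lower. A gene passed at an adjusted p under 0.05 in limma, adjusted over all 21658 genes. Differences of at least 2-fold were seen for 4 genes in OV-90-R (background 16.1%), 0 in Kuramochi-R (22.5%), 2 in OVSAHO-R (7.76%) and 1 in EFO-21-R (14.3%). Among them, CCND2 in OV-90-R and CDK6 in EFO-21-R ended at the bottom of the scale, so that their fold is not measured. CDK6 in OV-90-R no longer passed after correction for length. In bulk RNA, fewer cells of a kind and less RNA per cell cannot be told apart, which holds for each change below.

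**Figure D1:**
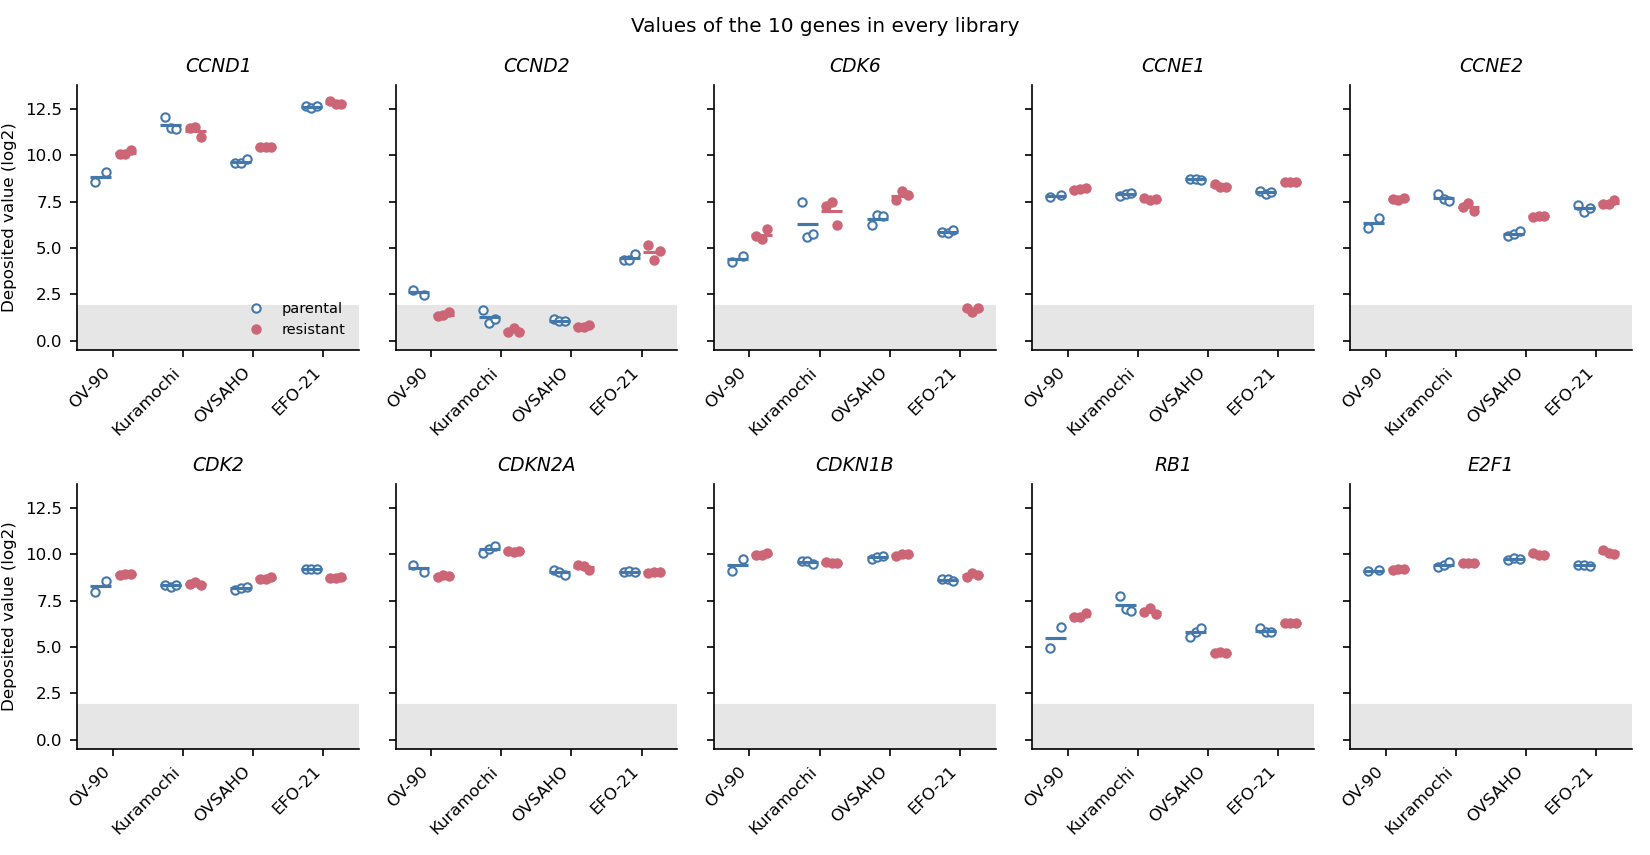
Deposited log2 value of each of the 10 genes (y axis) in every library of the 4 lines (x axis), with parental libraries as open and resistant ones as filled circles, group means as bars and the bottom of the scale shaded. CDK6 drops from 5.79 to 5.95 in parental EFO-21 into the shaded band in EFO-21-R, and CCND2 is above that band in both forms of EFO-21 and in parental OV-90.

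The size of the change was not the same in the 4 lines. A moderated F test of that difference was passed by 10 of the 10 genes, and by 75.1% of all genes. For 5 of the genes, CCNE1, CCNE2, CDK2, CDK6 and RB1, the test was passed upward in at least 1 line and downward in another, a pattern held by 25.4% of all genes. Of the 10, CCNE1 passed in 4 of 4 lines, as did 4.29% of all genes, and CDKN2A in 0, as did 15.4%.

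CCND1 encodes cyclin D1, the partner of CDK4 and CDK6, and lies on chromosome 11 at 69455924 to 69469242 of GRCh37. Its parental values were 8.55 and 9.10 in OV-90, 12.05, 11.44 and 11.41 in Kuramochi, 9.57, 9.57 and 9.77 in OVSAHO and 12.63, 12.55 and 12.63 in EFO-21. The 4 lines thus stood apart from one another in the order EFO-21, Kuramochi, OVSAHO, OV-90. Each step in that order passed the test, with differences of 0.97 ± 0.18 (SE, adjusted p = 0.000773), 2.00 ± 0.18 (adjusted p = 4.82e-06) and 0.81 ± 0.20 (adjusted p = 0.00449).

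With resistance CCND1 rose in both lines in which it had been lowest, though order and change share the parental libraries. In OV-90-R it stood at 10.06, 10.07 and 10.28, above both parental libraries, a log2 change of 1.31 ± 0.19 (SE, adjusted p = 0.016) that was 1.08 after correction for length. In OVSAHO-R it stood at 10.45, 10.45 and 10.41, a change of 0.80 ± 0.06 (adjusted p = 0.000562). In EFO-21-R the values of 12.92, 12.74 and 12.73 also lay above the parental ones, by 0.19 ± 0.06 (adjusted p = 0.0437). That small rise was lost in 5 of the 6 fits without 1 EFO-21 library, with adjusted p up to 0.123, and in the fit of the 23 libraries together (adjusted p = 0.364). Kuramochi-R overlapped with its parental line at 11.44, 11.51 and 10.95, a difference of -0.34 with a 95% interval of -0.87 to 0.20.

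CCND2 encodes cyclin D2, which can stand in for cyclin D1, and lies on chromosome 12 at 4378937 to 4414519. It was highest in EFO-21. Its parental values there were 4.33, 4.35 and 4.69, against 2.75 and 2.47 in OV-90, 1.66, 0.96 and 1.18 in Kuramochi and 1.16, 1.08 and 1.04 in OVSAHO. EFO-21 exceeded OV-90 by 1.85 ± 0.28 (SE, adjusted p = 0.000197), and OV-90 exceeded Kuramochi by 1.34 ± 0.28 (adjusted p = 0.00171), while Kuramochi and OVSAHO were both at the bottom. In OV-90-R CCND2 fell to the bottom, at 1.34, 1.37 and 1.53 (change -1.20 ± 0.19, adjusted p = 0.0184, and -1.74 after correction for length), a difference that ends at the floor. In Kuramochi it passed the test at a change of -0.73 ± 0.23 (adjusted p = 0.039), but the values, 0.46, 0.68 and 0.47 in Kuramochi-R, were at the bottom in both forms, so that no fold is given. EFO-21-R overlapped with its parental line at 5.17, 4.33 and 4.81, a difference of 0.31 with an interval of -0.30 to 0.92. In OVSAHO-R, also at the bottom, CCND2 stood at 0.74, 0.77 and 0.83 and did not pass (adjusted p = 0.0982).

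CDK6, a kinase that cyclin D drives, showed the largest change of the 10. It lies on chromosome 7 at 92234235 to 92465887 and has an annotated transcript of 11663 bases and so belongs to the longest 10% of genes. In parental EFO-21 its values were 5.86, 5.79 and 5.95, and in EFO-21-R they were 1.79, 1.53 and 1.79, at the bottom of the scale in 3 of 3 libraries. The difference of -4.17 ± 0.15 (SE, adjusted p = 2.43e-05) ends at that floor. Values under the alternatives ran from -4.24 to -4.08, apart from the filter on low values, which removed the gene.

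In OVSAHO the same gene rose, from 6.23, 6.79 and 6.73 to 7.57, 8.04 and 7.83, a change of 1.23 ± 0.19 (adjusted p = 0.00519) that was 1.0 after correction for length. In OV-90 it rose from 4.24 and 4.55 to 5.64, 5.50 and 6.0, by 1.32 ± 0.23 (adjusted p = 0.0215). The OV-90 rise was 0.54 after correction for length and no longer passed (adjusted p = 0.0704). Kuramochi is not decided: its parental values were 7.48, 5.60 and 5.75 and its resistant values 7.26, 7.45 and 6.26, a difference of 0.71 with an interval of -0.68 to 2.10 (adjusted p = 0.349). The high parental library was number 4 and the low resistant library number 18, which also stood out along transcript length. Without library 4 the difference was 1.31 and passed (adjusted p = 0.0339). At baseline CDK6 was lowest in OV-90, 1.47 ± 0.47 below EFO-21 (adjusted p = 0.0164), and the steps between OVSAHO, Kuramochi and EFO-21 did not pass (0.31, interval -0.63 to 1.24, and 0.41, interval -0.52 to 1.34).

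**Figure D2:**
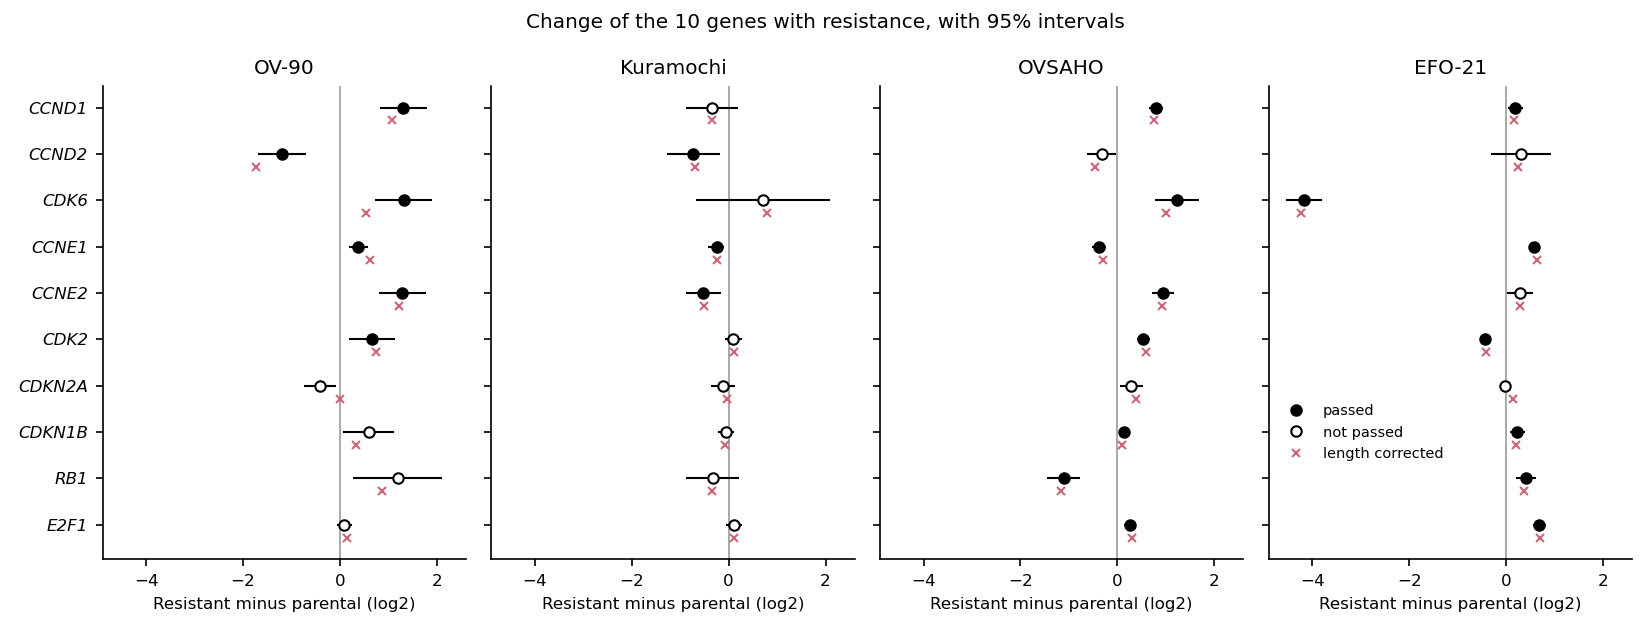
Resistant minus parental log2 difference of each gene (x axis) in the 4 lines, with 95% intervals from limma, filled circles for genes that passed the test, open circles for those that did not, and crosses for the value after correction for transcript length. CDK6 lies at -4.17 in EFO-21 and at 1.23 in OVSAHO, and the crosses leave the circles mainly in OV-90.

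CCNE1 encodes cyclin E1, the activator of CDK2 at the G1/S border, and lies on chromosome 19 at 30302898 to 30315219. OVSAHO carried the most of it at baseline. Its parental values were 8.73, 8.72 and 8.65 there, 8.04, 7.93 and 8.01 in EFO-21, 7.82, 7.89 and 7.96 in Kuramochi and 7.74 and 7.86 in OV-90. OVSAHO exceeded EFO-21, the next line, by 0.71 ± 0.07 (SE, adjusted p = 8.94e-06), or 1.64-fold. The steps from EFO-21 to Kuramochi (0.10, interval -0.06 to 0.26) and from Kuramochi to OV-90 (0.09, interval -0.08 to 0.27) did not pass.

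With resistance CCNE1 moved up in EFO-21 and OV-90 and down in OVSAHO and Kuramochi. In EFO-21-R it rose to 8.56, 8.55 and 8.57, by 0.57 ± 0.04 (adjusted p = 0.000157), which is 1.49-fold. In OV-90-R it rose to 8.13, 8.20 and 8.21, by 0.38 ± 0.08 (adjusted p = 0.0276), and by 0.62 after correction for length. In OVSAHO-R it fell to 8.44, 8.26 and 8.27, a change of -0.38 ± 0.06 (adjusted p = 0.00541). In Kuramochi-R it fell to 7.68, 7.60 and 7.63 (change -0.25 ± 0.07, adjusted p = 0.0234). The Kuramochi fall did not pass in 5 of 6 fits without 1 library, with adjusted p up to 0.0847. After these changes, the means of OVSAHO-R and EFO-21-R were 8.32 and 8.56.

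CCNE2 encodes cyclin E2, the second activator of CDK2, and lies on chromosome 8. Its order at baseline was not that of CCNE1. The values were 7.92, 7.63 and 7.55 in Kuramochi, 7.32, 6.96 and 7.17 in EFO-21, 6.07 and 6.62 in OV-90 and 5.62, 5.75 and 5.92 in OVSAHO, and all 3 steps passed (0.55, 0.81 and 0.58, adjusted p = 0.0148, 0.00306 and 0.0191). OVSAHO, the line with the most CCNE1, thus had the least CCNE2.

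Both lines with the least CCNE2 gained it with resistance, though the same parental libraries set the baseline order and enter the change. OVSAHO-R stood at 6.67, 6.70 and 6.74, a rise of 0.94 ± 0.09 (adjusted p = 0.00132). OV-90-R stood at 7.62, 7.58 and 7.70, a rise of 1.29 ± 0.18 (adjusted p = 0.0164), and of 1.21 after correction for length. Kuramochi-R, at 7.19, 7.40 and 6.97, fell from the highest level (change -0.52 ± 0.15, adjusted p = 0.0295), a call that did not hold without library 4, 5, 16 or 18 (adjusted p = 0.0563 to 0.0821). In EFO-21-R the values of 7.37, 7.39 and 7.56 lay above the parental ones but did not pass (0.29, interval 0.03 to 0.55, adjusted p = 0.0644). In OVSAHO, then, the E-type cyclins moved in opposite directions, CCNE1 down and CCNE2 up.

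CDK2 encodes the kinase of cyclin E and cyclin A, and lies on chromosome 12 at 56360565 to 56366573. Parental EFO-21 stood apart at 9.17, 9.18 and 9.17. The other lines gave 8.35, 8.24 and 8.35 in Kuramochi, 7.96 and 8.55 in OV-90 and 8.09, 8.15 and 8.24 in OVSAHO, and the step from EFO-21 to Kuramochi was 0.86 ± 0.13 (SE, adjusted p = 0.000161), with no step passing below it. In EFO-21-R CDK2 fell to 8.73, 8.72 and 8.74, a change of -0.44 ± 0.03 (adjusted p = 8.81e-05). It rose in OVSAHO-R to 8.66, 8.67 and 8.78, by 0.54 ± 0.06 (adjusted p = 0.00144), and in OV-90-R to 8.90, 8.92 and 8.94, by 0.67 ± 0.18 (adjusted p = 0.0462), or 0.75 after correction for length. The resistant forms of these 3 lines ended between 8.66 and 8.94. In Kuramochi-R, at 8.40, 8.49 and 8.33, CDK2 overlapped with the parental values (0.10, interval -0.07 to 0.27). In EFO-21 both CDK genes among the 10 were thus lower while CCNE1 was higher.

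CDKN2A lies on chromosome 9 at 21967751 to 21995300. It yields p16INK4a and, from another first exon, p14ARF, and the value per gene pools both. Kuramochi carried the most, at 10.07, 10.30 and 10.46, against 9.42 and 9.04 in OV-90, 9.01, 9.11 and 9.01 in EFO-21 and 9.16, 9.05 and 8.87 in OVSAHO. Kuramochi exceeded OV-90 by 1.05 ± 0.14 (SE, adjusted p = 8.05e-05), and the other lines did not differ by a passing step. No line changed CDKN2A by a difference that passed with resistance. The differences were -0.41 (interval -0.74 to -0.08, adjusted p = 0.0617) in OV-90, -0.12 (-0.37 to 0.13) in Kuramochi, 0.29 (0.05 to 0.52, adjusted p = 0.07) in OVSAHO and -0.03 (-0.12 to 0.06) in EFO-21. After correction for length, OVSAHO passed at 0.38 (adjusted p = 0.00773) and EFO-21 at 0.14 (adjusted p = 0.0151), while the OV-90 difference was -0.00.

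CDKN1B lies on chromosome 12 at 12838432 to 12875303 and encodes p27. EFO-21 had the least of it, at 8.65, 8.65 and 8.55, with 9.08 and 9.72 in OV-90, 9.64, 9.64 and 9.46 in Kuramochi and 9.76, 9.83 and 9.88 in OVSAHO. The step from OV-90 to EFO-21 was 0.78 ± 0.15 (SE, adjusted p = 0.00112). The line with the most CDK2 was therefore the one with the least CDKN1B at baseline. The rises with resistance were small: EFO-21-R at 8.74, 8.97 and 8.85 by 0.23 ± 0.07 (adjusted p = 0.0273), and OVSAHO-R at 9.92, 9.99 and 9.98 by 0.14 ± 0.04 (adjusted p = 0.0459). Neither rise was secure, since the first was lost in 5 of 6 and the second in 5 of 6 fits without 1 library (adjusted p up to 0.085 and 0.141). OV-90-R, at 9.95, 9.96 and 10.06, lay above both parental libraries without passing (0.59, interval 0.07 to 1.11, and 0.34 after correction for length), and Kuramochi-R differed by -0.05 (interval -0.22 to 0.12).

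RB1 encodes the pocket protein that restrains E2F factors, and lies on chromosome 13 at 48877880 to 49173572. Parental Kuramochi was highest at 7.74, 7.03 and 6.94, against 6.01, 5.82 and 5.79 in EFO-21, 5.56, 5.80 and 6.01 in OVSAHO and 4.94 and 6.05 in OV-90. The step from Kuramochi to EFO-21 was 1.37 ± 0.29 (SE, adjusted p = 0.00199), and the others did not pass. In OVSAHO-R RB1 fell to 4.66, 4.71 and 4.68, below each parental library, a change of -1.11 ± 0.14 (adjusted p = 0.00273), or 2.15-fold. That value ran from -1.22 to -1.0 over the alternatives. In EFO-21-R it rose to 6.28, 6.28 and 6.29, by 0.41 ± 0.09 (adjusted p = 0.00968), and did not pass when the 23 libraries were fitted together (adjusted p = 0.15).

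OV-90 gave no decided answer for RB1. The resistant values of 6.63, 6.59 and 6.82 lay above both parental ones, by 1.19 ± 0.35 (adjusted p = 0.0556). The parental libraries were far apart, at 4.94 and 6.05, and the difference was 0.87 after correction for length (adjusted p = 0.0669), 0.63 without library 2 (adjusted p = 0.0409) and 1.74 without library 3 (adjusted p = 0.00391), where the single remaining parental library is assumed to vary like the resistant ones. It passed when the 23 libraries were fitted together (adjusted p = 0.000581). In Kuramochi-R, at 6.89, 7.07 and 6.76, RB1 differed by -0.33 (interval -0.88 to 0.22). The gene LPAR6 is annotated inside an intron of RB1 on the other strand. Whether the authors counted by strand is not stated, so reads of LPAR6 and RB1 cannot be told apart with certainty. Within the annotated span of RB1 lie also LINC00462, which did not pass in OVSAHO-R, and RCBTB2, which rose there by 0.65 (adjusted p = 0.0232). Annotated spans also overlap for PMEL and CDK2, INTS8 and NDUFAF6 with CCNE2, and LTO1 and CCND1. The same is true of GPR19 and CDKN1B, CDKN2B-AS1 and CDKN2A, and CDK6-AS1 and CDK6. LPAR6 was at 2.18 to 3.22 in parental OVSAHO and at the bottom in OVSAHO-R (difference -1.56 ± 0.55, adjusted p = 0.0785).

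E2F1 encodes the activator released from RB1, and lies on chromosome 20 at 32263283 to 32274191 on the minus strand. Its range over the 23 libraries was 1.11 on the log2 scale, close to the 1.13 of CCNE1, against a median range of 3.07 for all genes. At baseline OVSAHO was highest at 9.68, 9.77 and 9.73, followed by Kuramochi at 9.33, 9.39 and 9.55, EFO-21 at 9.40, 9.43 and 9.38 and OV-90 at 9.10 and 9.12. The steps from OVSAHO to Kuramochi (0.31 ± 0.07, SE, adjusted p = 0.00238) and from EFO-21 to OV-90 (0.29 ± 0.07, adjusted p = 0.00508) passed, and Kuramochi and EFO-21 did not differ by a passing step. With resistance E2F1 rose in EFO-21-R to 10.21, 10.05 and 10.02, by 0.69 ± 0.05 (adjusted p = 0.000257), which is 1.62-fold. In OVSAHO-R it rose to 10.08, 9.95 and 9.94, by 0.26 ± 0.05 (adjusted p = 0.0108). The differences in OV-90 (9.16, 9.22 and 9.20 in OV-90-R, 0.09, interval -0.06 to 0.24) and Kuramochi (9.50, 9.54 and 9.54 in Kuramochi-R, 0.11, interval -0.06 to 0.27) did not pass.

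E2F1 and CCNE1 rose together in EFO-21-R and parted in OVSAHO-R, where E2F1 rose and CCNE1 fell. Their start regions are shown side by side as a description, and a link to these changes was not tested. Both are from RefSeq on GRCh38.p14, from 250 bases before to 50 bases after the annotated start, 5′ to 3′ on the strand of the gene. Capitals mark each match to TTTNNCGC, a common spelling of the E2F motif, on either strand.
E2F1 (chromosome 20, 33686336 to 33686635, minus strand): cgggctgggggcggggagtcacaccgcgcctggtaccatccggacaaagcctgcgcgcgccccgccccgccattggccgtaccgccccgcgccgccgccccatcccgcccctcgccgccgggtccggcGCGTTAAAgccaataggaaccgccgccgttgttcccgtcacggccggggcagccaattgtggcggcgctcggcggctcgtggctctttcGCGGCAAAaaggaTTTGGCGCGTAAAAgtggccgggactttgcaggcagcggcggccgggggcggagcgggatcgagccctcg
CCNE1 (chromosome 19, 29811741 to 29812040, plus strand): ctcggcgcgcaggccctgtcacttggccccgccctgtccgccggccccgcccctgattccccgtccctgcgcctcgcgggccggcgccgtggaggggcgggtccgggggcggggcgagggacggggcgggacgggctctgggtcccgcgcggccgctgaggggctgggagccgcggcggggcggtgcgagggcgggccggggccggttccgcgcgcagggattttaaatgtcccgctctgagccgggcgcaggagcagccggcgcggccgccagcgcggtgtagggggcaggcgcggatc

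The E2F1 region holds 4 matches, 3 of them within 33 bases before the start and 2 of those overlapping, while the CCNE1 region holds 0. Of 27305 promoters of the same length in the RefSeq table, 6.90% hold at least 1 match. Among the S-phase genes that E2F drives, listed below, 23 promoters were searched and 11 held a match, so that many such genes lack it as CCNE1 does. Of the 6 genes among the 10 that were looked up there (CCNE1, CDK6, RB1, E2F1, CDKN2A and CDKN1B), E2F1 was the 1 with a match. A match to these letters is a description and not a binding site, and its absence says only that the letters are not in this window.

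The rest of the pathway was read from lists of genes by role. In OVSAHO-R and EFO-21-R, the lines in which E2F1 passed upward, most of the S-phase genes that E2F drives were higher. Of 26 such genes, 20 were higher and 0 lower in OVSAHO-R, with a median log2 change of 0.40 against 0.00 for all genes, and 21 were higher and 1 lower in EFO-21-R, with a median of 0.41 against 0.01, while 6 and 4 did not pass. The shares of all genes called higher were 17.1% in OVSAHO-R and 25% in EFO-21-R. The replicative helicase subunit MCM2 rose by 0.52 ± 0.03 (SE, adjusted p = 0.000293) in OVSAHO-R and by 0.90 ± 0.05 (adjusted p = 6.1e-05) in EFO-21-R. The flap endonuclease FEN1 rose by 0.76 ± 0.07 (adjusted p = 0.00125) and by 0.57 ± 0.08 (adjusted p = 0.00201) in the same lines. GMNN, the inhibitor of origin licensing, was the gene that fell in EFO-21-R (change -0.28 ± 0.07, adjusted p = 0.0179). These examples were chosen with their values known. Under each alternative the count that rose stayed between 18 and 21 in OVSAHO-R and between 19 and 21 in EFO-21-R.

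In Kuramochi-R 8 of the same list were higher and 3 lower with a median of 0.03, against 23.6% and 23.3% of all genes. In OV-90-R 4 were higher and 6 lower with a median of 0.05, against 18.1% and 17.9% of all genes, whose medians were -0.02 in Kuramochi and -0.06 in OV-90. The OV-90 count was 14 higher and 9 lower without parental library 3. Of 6 proliferation markers, 2 were higher and 1 lower in OV-90-R, where MKI67 went from a mean of 5.80 to 7.23 and TOP2A from 8.25 to 9.87. The other means moved less, BUB1 from 8.16 to 8.33, CCNB1 from 11.11 to 11.15, AURKA from 7.12 to 6.98 and PLK1 from 10.28 to 10.05. The summed log2 values of the 6 there, not corrected for length, were 48.9 to 52.5 in parental and 53.2 to 54.0 in resistant libraries, without overlap. That gap rests mainly on MKI67 and TOP2A. The part of the 6 markers in the results for the 5 G1/S genes that passed upward was not tested. In Kuramochi-R 1 was higher and 1 lower, with sums of 54.0 to 56.0 against 54.7 to 56.8. Of the same 6, 1 was higher and 1 lower in OVSAHO-R and 3 were higher and 3 lower in EFO-21-R, and their summed log2 values were 55.3 to 56.3 against 55.9 to 56.6 in OVSAHO and 54.9 to 55.7 against 55.3 to 55.4 in EFO-21, parental against resistant.

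In EFO-21-R other kinase and cyclin transcripts were lower along with CDK6 and CDK2. Of 10 other cyclins and CDKs of G1/S and their activating kinase, 8 were lower and 0 higher, with a median of -0.43 against 0.01 for all genes, of which 23.4% were lower. CCNA1, cyclin A1, stood at 7.29, 7.06 and 7.33 in parental EFO-21 and at 2.02, 2.41 and 2.10 in EFO-21-R, a change of -5.05 ± 0.16 (SE, adjusted p = 1.79e-05) that ends close to the bottom. Its S-phase relative CCNA2 fell by 1.05 on the log2 scale, from 9.14 to 9.29 down to 8.09 to 8.26 (adjusted p = 8.26e-05), and CCNC, cyclin C, fell by 1.03 (adjusted p = 0.00138). CDK4, the other partner of cyclin D, was also lower, with a change of -0.83 ± 0.05 (adjusted p = 0.00012), so that no rise of CDK4 stood beside the fall of CDK6. CDK4 is named for sharing the role of CDK6, with its values known. Among 6 other CDK inhibitors 1 was higher and 1 lower, the latter CDKN1C, which encodes p57 (change -1.06 ± 0.07, adjusted p = 0.000172). PKMYT1, a kinase that inhibits CDK1, rose by 1.07 ± 0.06 (adjusted p = 6.81e-05).

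**Figure D3:**
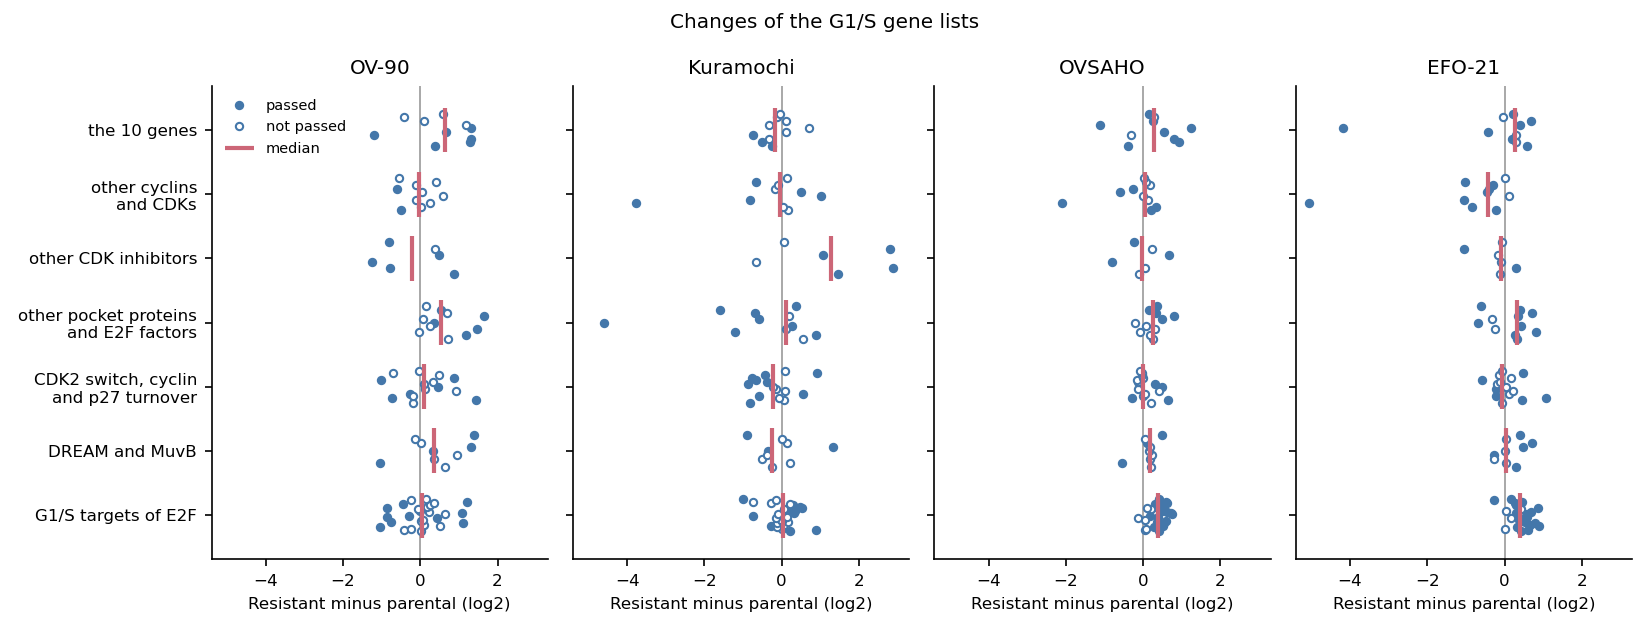
Resistant minus parental log2 difference (x axis) of every gene of the 7 lists (y axis) in the 4 lines, filled where the test was passed, with list medians as bars. The E2F targets lie right of 0 in OVSAHO (median 0.40) and EFO-21 (median 0.41), the other CDK inhibitors in Kuramochi (median 1.26).

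In Kuramochi-R CDKN2A and CDKN1B did not change by a passing difference, but 4 of the 6 other CDK inhibitors rose and 0 fell, with a list median of 1.26, against 23.6% of all genes higher and a median of -0.02. The count that rose was 4 under each alternative. CDKN2C, which encodes p18INK4c, stood at 6.62, 6.87 and 6.40 in parental and at 9.51, 9.48 and 9.52 in resistant libraries, a rise of 2.87 ± 0.12 (SE, adjusted p = 1.92e-05). CDKN1C rose from 4.01, 4.60 and 4.68 to 7.22, 7.15 and 7.35, by 2.81 ± 0.20 (adjusted p = 0.000124). CDKN2B, which encodes p15INK4b next to CDKN2A, rose by 1.46 ± 0.13 (adjusted p = 0.000284). Of 11 other pocket proteins and E2F factors, 3 were higher and 5 lower there, with a median of 0.10. The pocket protein gene RBL2 rose by 0.88 ± 0.18 (adjusted p = 0.0084), TFDP2 by 0.37 and E2F4 by 0.27, which are named with their values known. E2F5 fell from 7.69, 7.78 and 7.90 to 3.11, 3.32 and 3.14 (change -4.60 ± 0.13, adjusted p = 8.06e-06), and TFDP1, the dimer partner of E2F factors, fell by 1.60 on the log2 scale (adjusted p = 7.54e-05). CCNA1 fell here too, from 5.73, 5.91 and 6.14 to 1.95, 1.83 and 2.71 (change -3.76 ± 0.29, adjusted p = 0.000157), again close to the bottom.

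In OVSAHO-R CCNA1 was the single gene of the pathway lists to change by at least 2-fold with libraries apart, from 7.46, 7.34 and 7.55 to 5.45, 5.31 and 5.30 (change -2.10 ± 0.08, adjusted p = 7.49e-05). Cyclin A1 was thus lower in 3 of the 4 resistant lines, and in OV-90 it differed by 0.26 (interval -0.31 to 0.82). Of 11 other pocket proteins and E2F factors, 5 were higher and 0 lower in OVSAHO-R, against 17.1% and 16.2% of all genes, beside the fall of RB1 itself, and leaving out 1 library took that count to between 2 and 6. Of 15 genes that switch CDK2 or turn over cyclins and p27, 3 were higher and 3 lower in OV-90-R, 2 and 7 in Kuramochi-R, 3 and 1 in OVSAHO-R and 3 and 3 in EFO-21-R, which for Kuramochi-R compares with 23.3% of all genes lower. The DREAM complex silences cell cycle genes in quiescence. Of 9 genes listed under DREAM and MuvB, 3 were higher and 1 lower in OV-90-R, 1 and 2 in Kuramochi-R, 2 and 1 in OVSAHO-R and 4 and 1 in EFO-21-R. For both lists, the shares of all genes higher and lower were 18.1% and 17.9% in OV-90-R and 23.6% and 23.3% in Kuramochi-R. They were 17.1% and 16.2% in OVSAHO-R and 25% and 23.4% in EFO-21-R.

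In OV-90-R the pathway genes with the largest changes were E2F7, an E2F repressor, with 1.64 ± 0.30 (SE, adjusted p = 0.0233), E2F3 with 1.48 ± 0.31 (adjusted p = 0.0282), and the CDK-inhibiting kinase WEE1 with 1.43 ± 0.14 (adjusted p = 0.00946). They were followed by the DREAM-assembling kinase DYRK1A with 1.38 ± 0.28 (adjusted p = 0.0268), the MYB factor MYBL1 with 1.32 ± 0.26 (adjusted p = 0.0265) and CDKN2D, which encodes p19INK4d, with -1.26 ± 0.28 (adjusted p = 0.032). After correction for length the 6 differences were 1.21, 1.13, 1.07, 0.49, 0.96 and -0.91 in the same order and still passed (adjusted p = 0.0202, 0.0256, 0.00439, 0.0404, 0.0309 and 0.0444), so that the difference of DYRK1A was the one most reduced. The OV-90 calls rest on few libraries. When resistant library 13, 14 or 15 was left out, 0 of the 10 G1/S genes passed in limma, and 0 or 1 of the 26 E2F targets, although 6 of 10 had an unadjusted p under 0.05 and 10 of 10 kept their sign, and the share of all genes that passed fell from 36.0% to 1.46%, 2.05% and 1.70%. Without parental library 2 or 3, 8 and 9 of the 10 passed.

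**Figure D4:**
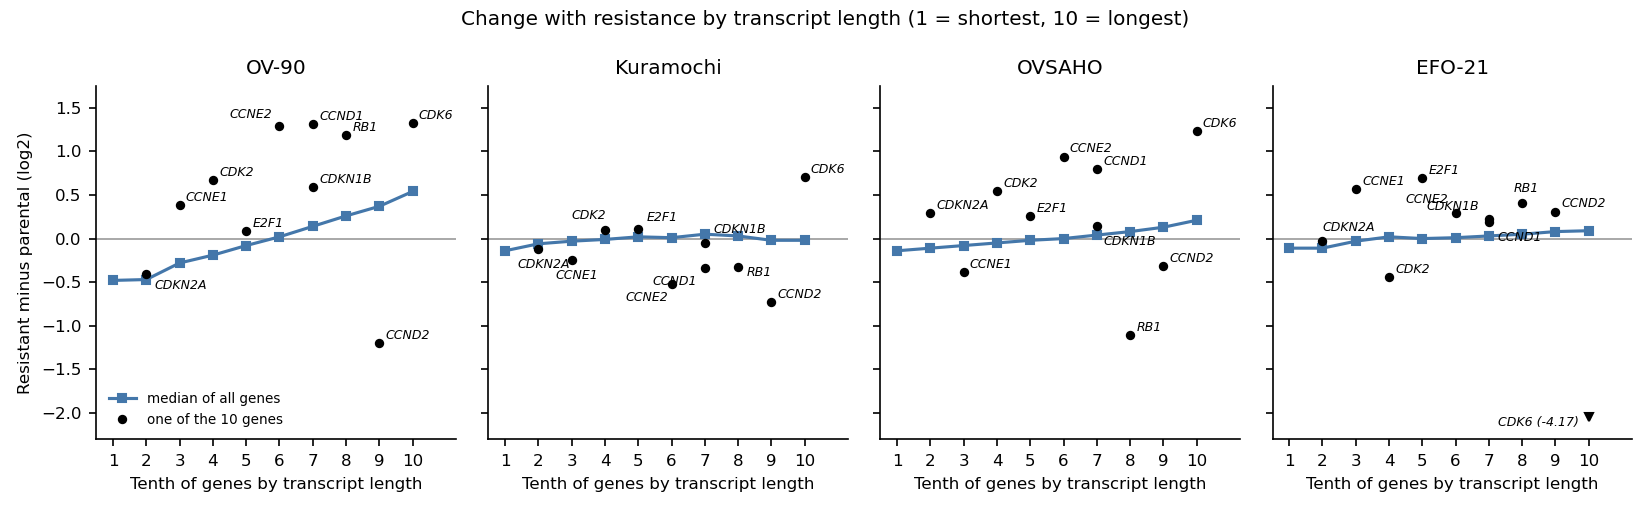
Median log2 change of all genes (y axis, blue squares) in 10 equal bins of genes by annotated transcript length (x axis, 1 = shortest), with each of the 10 genes as a labelled point in its own bin and CDK6 in EFO-21 drawn at the lower edge. In OV-90 the median climbs from -0.48 to 0.54, and CDKN2A lies on that line while CCNE2, CCND1 and CCND2 lie off it.

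Neighbouring genes on the chromosome were counted to see how local each change was, with the 5 measured genes on either side. The shares of all genes called higher and lower, against which the counts are read, were 25% and 23.4% in EFO-21-R, 17.1% and 16.2% in OVSAHO-R, 23.6% and 23.3% in Kuramochi-R and 18.1% and 17.9% in OV-90-R. Around CDK6 in EFO-21-R, 3 of the 10 neighbours were higher and 1 lower, with a median of 0.06, so the fall of CDK6 was not shared by most of its region. Its antisense gene CDK6-AS1 was at the bottom in both forms. Around CDK2 in the same line, 7 of 10 neighbours were lower and 0 higher, with a median of -0.92. PYM1 (-1.40 ± 0.09, SE, adjusted p = 0.000143), RAB5B (-1.24 ± 0.06, adjusted p = 5.88e-05), and RPS26 (-1.43 ± 0.11, adjusted p = 0.00024) fell by more than CDK2 itself. The receptor gene ERBB3 fell too (-2.09 ± 0.22, adjusted p = 0.000746), to a mean of 1.85 with 2 of 3 EFO-21-R libraries at the bottom, so that its difference ends at the floor.

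Around RB1 in OVSAHO-R, 1 of the 10 neighbours was higher and 1 lower, with a median of -0.13, so that the fall of RB1 was not shared by most of its region. The lower one was ITM2B, next to RB1 (-0.30 ± 0.05, SE, adjusted p = 0.00728), and the higher one RCBTB2 (0.65). LPAR6 and LINC00462, within the span of RB1, differed by -1.56 and -1.32 without passing. In Kuramochi-R, by contrast, 7 of the 10 genes around RB1 were lower and 0 higher, with a median of -1.03, while RB1 differed by -0.33. LPAR6 was among them, at -1.20 ± 0.07 (SE, adjusted p = 6.05e-05). Around CCNE1, the neighbours were 2 higher and 2 lower in EFO-21-R and 0 higher and 3 lower in OVSAHO-R. ZNF536 rose there in EFO-21-R by 3.85 ± 0.33 (adjusted p = 0.000345), from the bottom in 3 of 3 parental libraries, and TSHZ3 by 2.37 ± 0.40 (adjusted p = 0.00458). Around CCNE2 in OV-90-R 4 neighbours were higher and 1 lower, and the largest rise was that of TP53INP1, by 3.23 ± 0.23 (adjusted p = 0.00553), with DPY19L4 (1.54) and PLEKHF2 (1.13) also past 2-fold, and these were 2.81, 1.06 and 1.07 after correction for length. Other neighbours that passed 2-fold in the direction of the gene were IKZF4 near CDK2 (1.48, and 1.10 without passing after correction for length) and DYRK4 near CCND2 (-1.08, and -1.16 after correction) in OV-90-R, C20orf144 near E2F1 (1.13) in EFO-21-R, and PLEKHF2 near CCNE2 (-1.13) in Kuramochi-R. There LINC01532 near CCNE1 (-1.99) and ESRP1 near CCNE2 (-2.24) ended at the floor, with means of 0.42 and 1.73 and 3 and 2 of 3 libraries at the bottom, so that no fold is given for them.

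**Figure D5:**
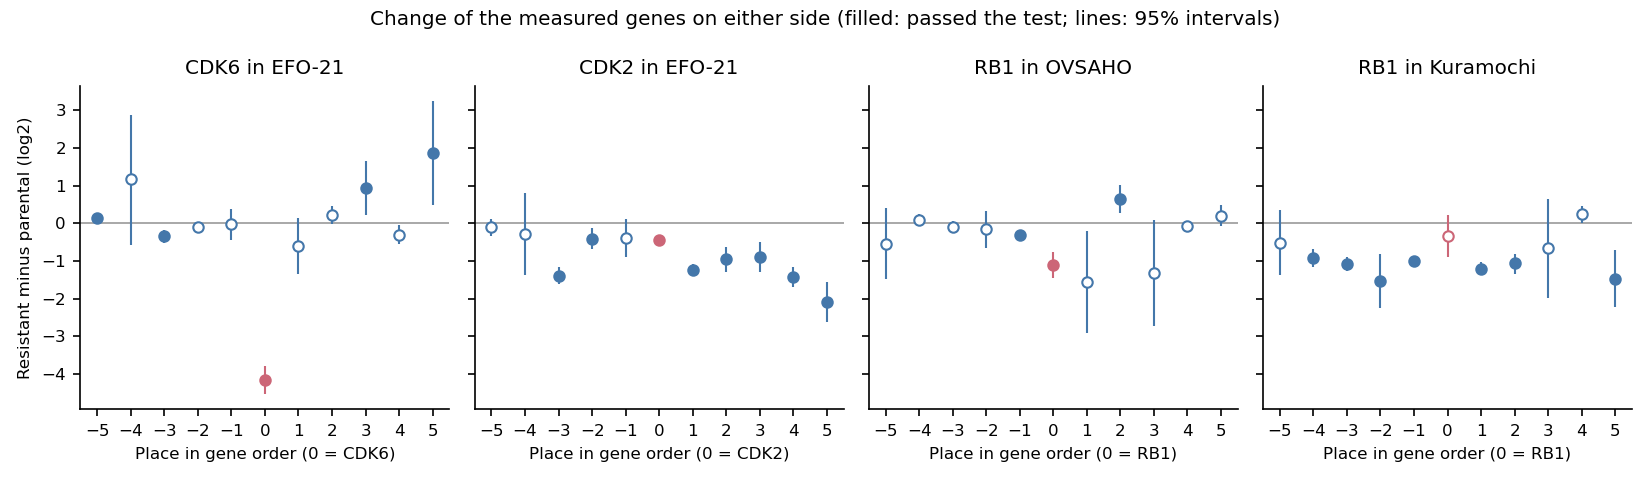
Resistant minus parental log2 difference (y axis, with 95% intervals) of 3 genes and their 5 measured neighbours on either side in chromosome order (x axis), filled where the test was passed. CDK6 falls in EFO-21 with a neighbour median of 0.06 and RB1 falls in OVSAHO with a neighbour median of -0.13, while the neighbours of CDK2 in EFO-21 (median -0.92) and of RB1 in Kuramochi (median -1.03) lie mostly below 0.

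How much of a gene's variation lay between lines differed widely among the 10. The share of the sum of squares over the 23 libraries that lay between lines was 93.8% for CCND2, 91.0% for CDKN2A, 89.6% for CCND1 and 85.3% for CDKN1B, against a median of 77.7% over all genes. CDK2 at 45.7%, CDK6 at 54.8%, CCNE2 at 55.2%, E2F1 at 63.5%, CCNE1 at 64.2% and RB1 at 66.3% were below that median. For CDK2, CDK6, CCNE2, CCNE1 and E2F1 the share between parental and resistant forms within a line was 46.5%, 40.6%, 40.0%, 33.9% and 33.8%, against a median of 14.3%. Between 6 and 8 of the 10 genes differed in each of the 6 comparisons of parental lines, which share libraries, with backgrounds of 69.0%, 70.0%, 71.9%, 62.5%, 67.1% and 69.0% of all genes for OV-90 against Kuramochi, OVSAHO and EFO-21, Kuramochi against OVSAHO and EFO-21, and OVSAHO against EFO-21.

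Averaged over lines, 4 of the 10 genes were higher in resistant libraries and 0 lower, against 33.0% of all genes called and 16.4% called higher. The fit took the 23 libraries and not the 4 lines as its units, so it does not show a rise in resistant lines at large. The genes called higher were CCNE2 (0.46 ± 0.16, SE, adjusted p = 0.0373), CCND1 (0.45 ± 0.15, adjusted p = 0.03), E2F1 (0.30 ± 0.06, adjusted p = 0.00168) and CDKN1B (0.21 ± 0.07, adjusted p = 0.0342). In Kuramochi the differences of CCNE2, CCND1 and CDKN1B were negative, at -0.52, -0.34 and -0.05. E2F1 was the gene of the 10 whose 4 differences all had one sign. The count of 4 was 2 without library 2, 3, 7, 13, 14 or 15.

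The genes most alike to each of the 10 over the 23 libraries, among genes above the median level, are given as a description, since libraries of a line share their line and the correlations mostly follow it. For CDK6 they were SMARCA5, GDF11 and NR2F1 (Pearson r 0.96, 0.95 and 0.95), for CCNE2 MARCHF7, EGR1 and NAA50 (0.97, 0.94 and 0.94) and for CDK2 NEMP1, SOAT1 and MAP4K5 (0.94, 0.93 and 0.92). For E2F1 they were FOXRED2, the maintenance methyltransferase gene DNMT1 and RNPC3 (0.91, 0.90 and 0.90), for CCNE1 ZFYVE27, PAXIP1-DT and IFITM1 (0.92 each) and for RB1 OSBPL2, SVIL and ZC3H15 (0.90, 0.90 and 0.89). CCND1 had POLR1F, CLSTN1 and PPP1R2B (0.98, 0.97 and 0.97), CCND2 RPS15A, TSPAN15 and RPS15AP24 (0.97, 0.96 and 0.96), CDKN2A PVT1, SNHG15 and INTS13 (0.95, 0.94 and 0.94) and CDKN1B ATP2B1, NBAS and PCBP1 (0.97 each).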

How the data were processed

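Stranded mRNA libraries were prepared and sequenced by the authors, with reads aligned to GRCh37/hg19. The deposited values are log2 expression values per gene that the authors derived from exon reads by a robust linear model (16448 genes, the 10 described here among them) or a mean of log2 exon values (5210 genes), and quantile normalised. Whether counting used strand is not given in the sources used here. Of 21658 NCBI Gene IDs, 20745 (95.8%) matched a RefSeq symbol (GRCh38.p14), and 19597 a GRCh37 position and transcript length in GENCODE. Counts were not used, so depth is unknown. Libraries are named by a number (2 to 24).

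Resistant and parental libraries of a line were compared with limma 3.58.1 in R 4.3.3 (lmFit, eBayes with trend, two-sided, Benjamini-Hochberg over all genes, no filter or pseudocount). Parental lines were compared in a fit of 11 parental libraries, differences of change by a moderated F test over 23 libraries, and the average change with line as a term. An exact permutation test of 3 against 3 or 2 against 3 libraries cannot give a p under 0.1, so none is reported. Nothing says that replicates came from separate derivations, so p-values measure the spread between libraries. The fits were tested on simulated data.

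Genes named beside the 10 were, by rule and apart from those that the text says were chosen with their values known and from markers and overlapping genes, at most 6 pathway genes per line that passed with at least 2-fold and libraries apart, the 3 most alike genes, and neighbours past 2-fold in the direction of the gene. The genes and lists were chosen with earlier results of these data known. Alternatives were a fit of the 23 libraries, no trend, a filter at the 25th percentile, recentring, 1.5-fold and 2-fold thresholds, adjustment over the 6 baseline contrasts together, leaving out each library, the mean of the 4 changes and, chosen after seeing the data, a lowess correction for transcript length.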

Additional observations from a re-analysis of the deposited data

Results flagged for a closer look

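The change with resistance differed between the 4 lines for each of the 10 genes, by a moderated F test of the difference itself in limma, adjusted over all genes, a test that 75.1% of all genes also passed. The adjusted p was 1.52e-08 for CCNE1 (changes 0.38 in OV-90, -0.25 in Kuramochi, -0.38 in OVSAHO and 0.57 in EFO-21), 7.83e-08 for CDK6 (1.32, 0.71, 1.23 and -4.17 in the same order) and 1.87e-06 for CCNE2 (1.29, -0.52, 0.94 and 0.29). It was 4.65e-06 for CDK2 (0.67, 0.10, 0.54 and -0.44), 1.25e-05 for E2F1 (0.09, 0.11, 0.26 and 0.69) and 4.21e-05 for RB1 (1.19, -0.33, -1.11 and 0.41). It was 4.56e-05 for CCND1 (1.31, -0.34, 0.80 and 0.19), 0.00377 for CDKN2A (-0.41, -0.12, 0.29 and -0.03), 0.0044 for CCND2 (-1.20, -0.73, -0.32 and 0.31) and 0.0113 for CDKN1B (0.59, -0.05, 0.14 and 0.23). All 10 also passed without each of the 23 libraries in turn. Groups of 2 or 3 libraries are too small for a test of single outlying libraries.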

How the results depend on the processing

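No paired analysis was possible because the library columns carry no replicate number. Of the alternative counts of passing genes among the 10, 195 stayed within 1.5 times the reported count and 25 moved beyond it. Leaving out 1 library gave 0 to 9 in OV-90, 0 to 3 in Kuramochi and 2 to 5 for the average change. In Kuramochi the count was 0 without library 16 or 18, though 3 of 10 then had an unadjusted p under 0.05. With a threshold of at least 2-fold, 0 passed in Kuramochi, 2 in OVSAHO and 1 in EFO-21, and at least 1.5-fold 1, 4 and 2. The 2-fold gene in EFO-21 was CDK6, which ended at the floor, and the 1.5-fold gene in Kuramochi was CCND2, at the bottom in both forms. At baseline, at least 2-fold left 2 for OV-90 against OVSAHO and 3 each for OV-90 and Kuramochi against EFO-21. One fit of the 23 libraries gave 4 in EFO-21, and the plain mean of the 4 changes gave 7 for the average.

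Of the values of single genes, 2002 kept their side of the threshold, 128 lost it, 47 gained it and 3 reversed. The 3 do not count every change of sign. For parental OV-90 against OVSAHO, 8 of the 10 genes kept their sign after correction for length. For parental OVSAHO against EFO-21, 9 kept it without library 7, 9 or 11. CDKN2A reversed after correction for length in EFO-21 (0.14) and for OV-90 against EFO-21 (-0.25), and CDK2 for OV-90 against Kuramochi was 0.23 without library 2 and -0.35 without library 3. Over all genes, 11879 passed in OV-90 in one fit of the 23 libraries against 7791, 12645 for the mean of the 4 changes against 7142, 12248 in OV-90 without library 3, 316, 443 and 369 without library 13, 14 and 15, and 4693 in OVSAHO without library 20. The filter on low values removed CCND2 from the baseline comparisons and from each line except EFO-21, and CDK6 in EFO-21. The causes were not tested. Depth is unknown, so values at the bottom limit what can be said of CCND2 and of CDK6 in EFO-21-R.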
